A study of Mus musculus with 2 samples.

Results

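The Ly6 surface antigen family was followed across the cell types of the mouse colon lamina propria as 7 genes, Ly6a, Ly6c1, Ly6c2, Ly6d, Ly6e, Ly6g and Ly6i, out of the 31053 features that each library's table lists. They were selected by symbol, and each symbol stood once in both tables. The study asked how a long non-coding RNA, given in the labels as LncRNA17Rik and called lncLy6c by the study, bears on gut macrophages, and compared wild-type (WT) mice with mice that lack it (KO). Single cells of the colonic lamina propria were sequenced with the 10x Genomics 3′ chemistry as 1 library per genotype, so that no difference between the genotypes has a replicate check. The KO line was made with CRISPR-Cas9 cuts before exon 1 and after exon 2 of the gene and was kept on the C57BL/6J background, and the labels name no treatment for either group. The study's legend to the cell map gives 8-week-old male mice, 6 in all, and pooled samples, without a split between the genotypes. The labels name CD11b+ cells as the sample and give the WT library the title WTGFC, without saying what GFC stands for. Live cells were sorted after a Percoll gradient.

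Ly6 proteins are small glycoproteins with a compact disulfide-bonded fold that most members display on the outer face of the plasma membrane through a glycosylphosphatidylinositol (GPI) anchor. In the mouse, Ly6C, the product of Ly6c1 and Ly6c2, marks classical monocytes and is lost as these cells mature into resident macrophages of the gut. Ly6G marks neutrophils, Ly6A (Sca-1) marks haematopoietic stem cells and is raised by interferons on many cells, Ly6D marks cells committed to the B lineage, and Ly6E is a broadly expressed, interferon-inducible member.

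All 7 genes lie in 1 stretch of 397071 bases on chromosome 15 of GRCm38, 5 on the minus strand and 2 on the plus strand, and no other annotated gene overlaps any of them. In the order of the chromosome they are Ly6d (chr15:74762056-74763620, minus), Ly6e (chr15:74955051-74959905, plus), Ly6i (chr15:74979534-74983430, minus), Ly6a (chr15:74994877-74998031, minus), Ly6c1 (chr15:75044018-75048830, minus), Ly6c2 (chr15:75108158-75111970, minus) and Ly6g (chr15:75155240-75159126, plus). The coding sequences of Ly6c1 and Ly6c2 were 97.7% identical, with 9 mismatches and 0 gaps over 393 bases. Ly6a and Ly6i were the next closest pair at 86.3%, with 55 mismatches over 402 bases. Ly6d and Ly6e stood apart from the other 5 genes and from each other at 46.9% to 53.6%. The first 90 coding bases of both close pairs are shown as an example of how alike the pairs are at the coding start, with 6 differing bases in each pair. Capitals mark the bases at which the members of a pair differ.
Ly6c1: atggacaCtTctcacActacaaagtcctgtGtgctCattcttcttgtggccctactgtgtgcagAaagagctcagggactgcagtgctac
Ly6c2: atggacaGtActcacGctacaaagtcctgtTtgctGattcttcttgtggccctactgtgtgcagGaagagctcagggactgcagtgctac
Ly6a: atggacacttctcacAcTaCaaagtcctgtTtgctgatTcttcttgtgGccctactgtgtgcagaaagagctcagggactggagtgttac
Ly6i: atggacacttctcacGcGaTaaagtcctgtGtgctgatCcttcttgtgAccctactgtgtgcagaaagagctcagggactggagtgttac

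A 3′ library reads the end of a transcript, and reads that match more than 1 gene are not counted by Cell Ranger. Over the last 500 bases of the annotated transcripts, 13.5% of the 91-base windows of Ly6c1 also occurred in transcripts of Ly6a or Ly6c2, and 19.0% of those of Ly6c2 occurred in Ly6c1. With 150-base windows the shares were 2.54% for Ly6c1 and 6.13% for Ly6c2. The remaining 5 members shared 0 windows with any other gene. Some reads of Ly6c1 and Ly6c2 may therefore be lost from their levels, whereas the 3′ ends of Ly6a, Ly6d, Ly6e, Ly6g and Ly6i were their own at both lengths. The shares do not measure the size of that loss. They pool the windows of all annotated transcripts without regard to where reads fall.

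Promoter sequences, 250 bases before to 50 after the start, were taken from RefSeq (GRCm38.p6), which matched 3 of the 7 members. They are shown because Ly6c1 and Ly6c2, nearly identical in coding sequence, were detected in different cell classes, and Ly6g in yet another. The promoters of Ly6c1 (chr15:75048788-75049087, minus), Ly6c2 (chr15:75111922-75112221, minus) and Ly6g (chr15:75155011-75155310, plus) were searched on both strands for the interferon-gamma activated sequence (GAS, TTCNNNGAA), the core of the interferon-stimulated response element (ISRE, GAAANNGAA), the RUNX site (TGTGGT), the core of the PU.1 site (GAGGAA) and the TATA box (TATAAA). Capitals mark the matches, none of which overlapped another.
Ly6c1 promoter: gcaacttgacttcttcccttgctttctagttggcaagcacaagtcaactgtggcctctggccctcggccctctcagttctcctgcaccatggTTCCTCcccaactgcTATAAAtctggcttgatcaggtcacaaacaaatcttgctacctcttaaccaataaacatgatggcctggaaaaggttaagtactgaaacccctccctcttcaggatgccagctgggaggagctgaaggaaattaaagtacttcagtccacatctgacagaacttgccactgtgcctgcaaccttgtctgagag
Ly6c2 promoter: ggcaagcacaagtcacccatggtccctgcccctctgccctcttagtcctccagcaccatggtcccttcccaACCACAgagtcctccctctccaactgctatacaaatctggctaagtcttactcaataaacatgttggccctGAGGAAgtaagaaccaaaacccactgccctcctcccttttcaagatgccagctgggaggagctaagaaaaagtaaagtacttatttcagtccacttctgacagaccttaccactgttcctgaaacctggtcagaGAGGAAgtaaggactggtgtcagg
Ly6g promoter: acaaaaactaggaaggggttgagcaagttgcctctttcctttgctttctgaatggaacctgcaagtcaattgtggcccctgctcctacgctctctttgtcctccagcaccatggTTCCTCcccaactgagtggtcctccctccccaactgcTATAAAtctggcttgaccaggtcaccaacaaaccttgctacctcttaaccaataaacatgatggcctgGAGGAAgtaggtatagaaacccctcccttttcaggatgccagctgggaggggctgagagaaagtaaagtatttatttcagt

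The GAS and ISRE letters were found in 0 of the 3 windows, beside 8.30% and 8.56% of all 32851 promoters of the same length. The RUNX letters occurred 1 time in the Ly6c2 window and in neither of the others, beside 16.8% of all promoters. PU.1 letters occurred 1 time in Ly6c1, 2 times in Ly6c2 and 2 times in Ly6g, beside 28.3% of all promoters with at least 1 match. The TATA letters were present in Ly6c1 and Ly6g and absent from this window of Ly6c2, beside 13.6% of all promoters. Along the whole window Ly6c1 was 62.3% identical to Ly6c2 and 62.5% to Ly6g, and Ly6c2 was 48.8% identical to Ly6g. Gap columns counted as differences, so windows that begin at different points of a shared sequence give lower values. The TATA letters, for example, began at base 108 of the Ly6c1 window and at base 152 of the Ly6g window. These percentages are therefore not read as divergence of the promoters. These matches are letters in a window and were not tested as binding sites.

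The WT library held 3185 barcodes and 22191774 unique molecular identifiers (UMIs), and the KO library 3020 barcodes and 23384895 UMIs. The study's filter left 2597 WT cells with a median of 5073 UMIs and 2514 KO cells with a median of 6564.5 UMIs, and 1 barcode was found in both libraries. The numbers of cells that the study states for its own map are larger than the barcodes used here in both genotypes, many-fold in WT and slightly in KO. The cells fell into 20 clusters, of which 19 were given 1 of 13 class names from marker genes, with the Ly6 genes kept out of both the clustering and the markers. The unnamed cluster held 4.54% of the WT cells and 2.94% of the KO cells. Itgam, which encodes CD11b, was at 248 and 297 CPM (UMIs per 1000000 UMIs) in the WT and KO inflammatory monocyte-like cells and at 655 and 754 CPM in the eosinophil-like cells, but at 37.5 and 24.4 CPM in the T cell-like cells, so that the cells used here were not all CD11b+ at the RNA level. Epx, a defining eosinophil gene, had 0 UMIs in both libraries, and the eosinophil-like name rests on Siglecf, Ccr3 and Alox15, of which Ccr3 and Alox15 were among the leading genes of the cluster. The other listed eosinophil markers, Prg2 and Il5ra, were not among its raised markers. Retnlg, a marker used for the neutrophils, stood ahead of Ccr3 and Alox15 among its leading genes. The eosinophil-like cells were shallow, with medians of 798.5 UMIs in WT and 971 UMIs in KO. No feature carries the name LncRNA17Rik, and the study's PCR primers for the deleted RNA matched 1700016P04Rik, which had 0 UMIs in both libraries, so that the counts offer no check of the genotype labels.

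CPM was taken over all UMIs of a class in a library and is given with exact Poisson 95% intervals. Ratios are those of KO over WT, in log2 units, each with an exact conditional binomial 95% interval. All intervals of levels and ratios cover counting error only, for 1 library on each side. Each UMI was taken as independent, so variation between the cells of a class is not covered. A member was counted as past 2-fold where the log2 ratio with a prior of 1 CPM was beyond 1 in size and both libraries together held at least 20 UMIs.

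Over all cells, 7 members reached 20 UMIs, and 5 of them (Ly6a, Ly6c1, Ly6c2, Ly6d and Ly6i) were lower in KO by more than 2-fold while 0 were higher. Of all 14006 genes measured in the same way, 13.4% were lower and 2.69% were higher. The median of all genes was itself -0.24, and relative to it Ly6c2 was -0.97 and no longer past 2-fold. The cell types differed in number between the libraries, with 236 WT and 5 KO plasma cell-like cells and 220 WT and 493 KO cDC2-like cells (type 2 conventional dendritic cells), so a level over all cells mixes the makeup of a library with the level inside its cells. Within the monocyte-like and macrophage-like cells together (897 WT and 642 KO cells), Ly6a and Ly6i were lower past 2-fold, 0 of the 4 measured members were higher, and 4.84% of all genes were lower and 2.57% higher. The median log2 ratio of the 4 members there was -1.47, beside -0.18 for all genes tested.

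**Figure D1:**
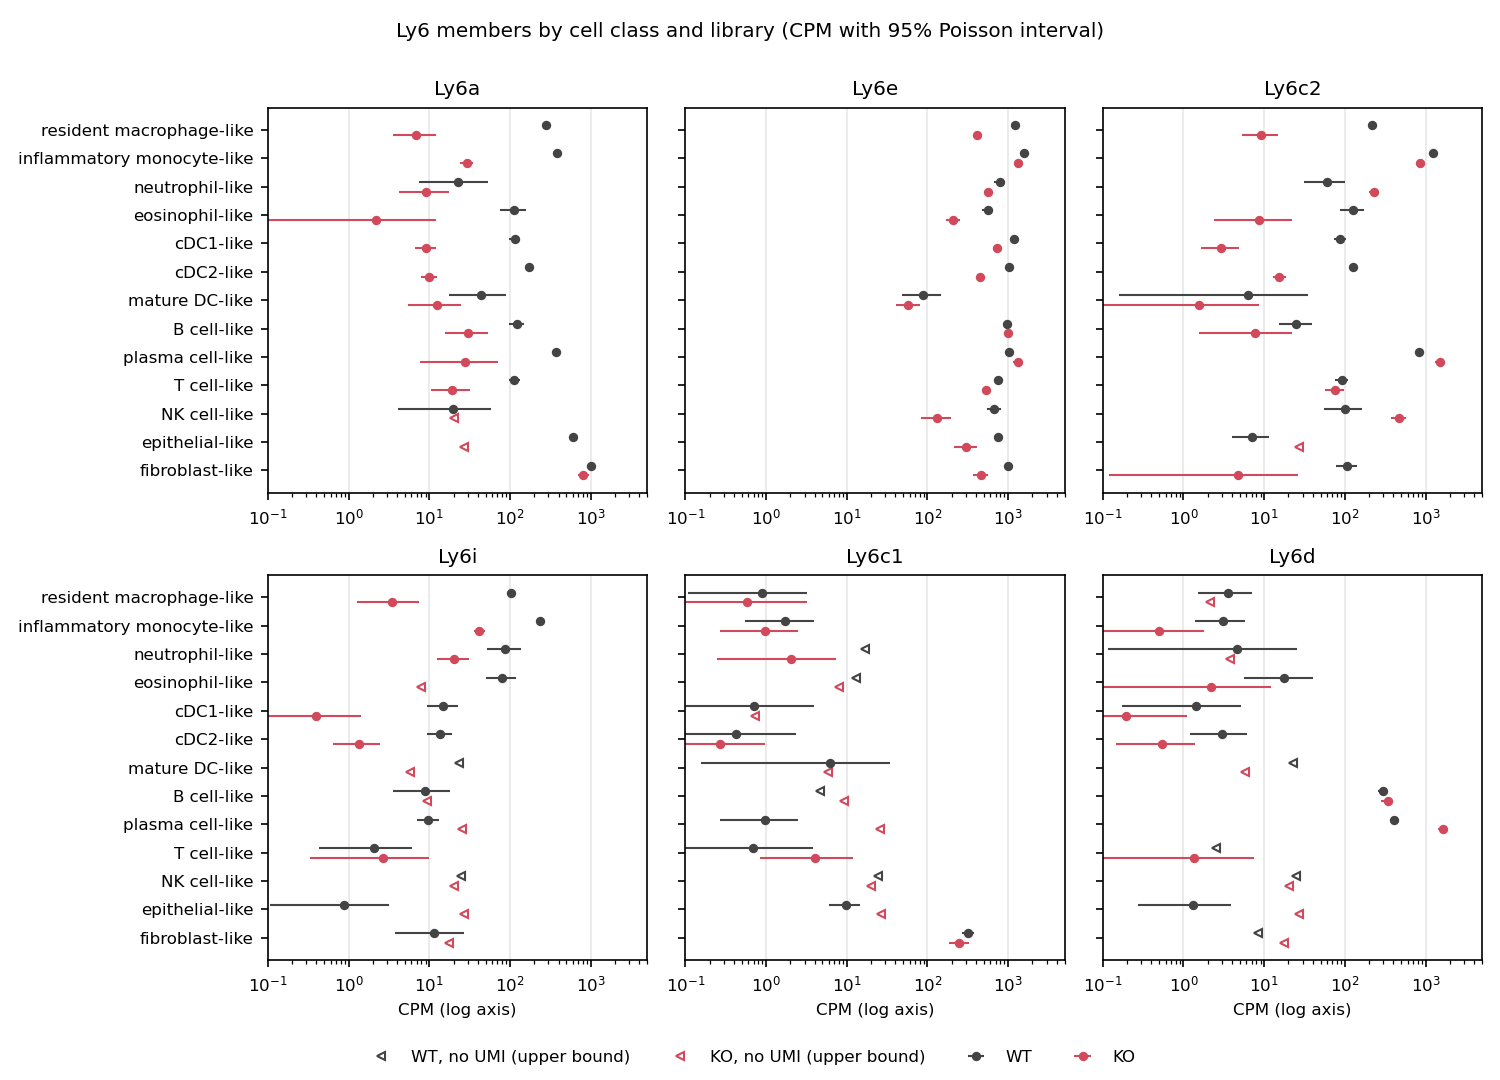
Level of 6 Ly6 members in each named class (CPM on a log axis) in the WT library (grey) and the KO library (red). Points are the pooled level of the class and bars are exact Poisson 95% intervals, and open triangles mark the upper bound where a class had no UMI. The KO points of Ly6a lie to the left of the WT points in every class shown with UMIs in both libraries, with the fibroblast-like cells closest at 1004 and 809 CPM.

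Ly6c2, the monocyte member, was highest in the inflammatory monocyte-like cells of both libraries among the classes with at least 30 cells, at 1231 CPM in WT (1191 to 1272) against 847 CPM in KO (819 to 875). The KO level was lower by 0.54 on the log2 scale (-0.54, interval -0.61 to -0.47), and the intervals of the levels did not overlap. In the resident macrophage-like cells it was 218 CPM in WT (199 to 238) against 9.20 CPM in KO (5.26 to 14.9), with a log2 ratio of -4.57 (-5.39 to -3.85), and 5 WT cells held 37.4% of the WT UMIs. Under other clustering and filter settings this ratio lay between -5.20 and -0.49. Ly6c2 thus stood well below the monocyte level in the resident macrophage-like cells of both libraries, and further below it in KO. In resident macrophage-like cells 4 of 4 measured members were lower past 2-fold and 0 were higher, beside 6.76% and 4.32% of all genes. In inflammatory monocyte-like cells 2 of 4 were lower (Ly6a and Ly6i) and 0 were higher, beside 5.66% and 2.06%.

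The inflammatory monocyte-like class was made of different clusters in the genotypes. Most of its WT cells (383 of 461) were in a cluster led by Inhba, Cxcl9 and Ptgs2, in which none of the monocyte markers was among the 10 leading genes, and most of its KO cells (286 of 454) were in a cluster led by Chil3, Ace and Lyz2. In the Inhba cluster, Ly6c2 was 1281 CPM in 383 WT cells against 218 CPM in 121 KO cells (-2.56, -2.75 to -2.37). In the Chil3 cluster it was 1157 CPM in 46 WT cells against 1066 CPM in 286 KO cells (-0.12, -0.28 to 0.05), an interval that holds 0. In the remaining small cluster of the class it was 903 CPM in 32 WT cells against 1327 CPM in 47 KO cells (0.56, 0.34 to 0.78). The modest difference of the class as a whole therefore joins a cluster with a large drop, a cluster with a difference no larger than counting error, and a cluster in which KO was higher.

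To describe the same cells without cluster borders, all monocyte-like and macrophage-like cells were ranked by the summed level of H2-Aa, H2-Ab1, H2-Eb1 and Cd74, the MHC class II genes that rise as monocytes mature in the gut, and divided into tertiles over both libraries. In the lowest tertile Ly6c2 was 1712 CPM in WT against 1218 CPM in KO, with a log2 ratio of -0.49 (-0.58 to -0.40). It was 837 and 224 CPM in the middle tertile (-1.90, -2.12 to -1.69). In the highest tertile it was 460.4 and 41.7 CPM (-3.47, -3.78 to -3.17). The level of Ly6c2 went down with MHC class II in both libraries, and the KO over WT ratio went down with it. The cells of a tertile were not at equal MHC class II levels, since the median of the lowest tertile was 4311 CPM in its 192 WT cells and 877 CPM in its 321 KO cells. C1qa, a complement gene of resident macrophages, was 512 CPM in WT against 16.9 CPM in KO in that tertile, 1386 and 1038 CPM in the middle and 1880.1 and 1432 CPM in the highest, so that the cells of the lowest tertile also differed in a macrophage gene, and the part of these differences in the ratios was not tested.

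**Figure D2:**
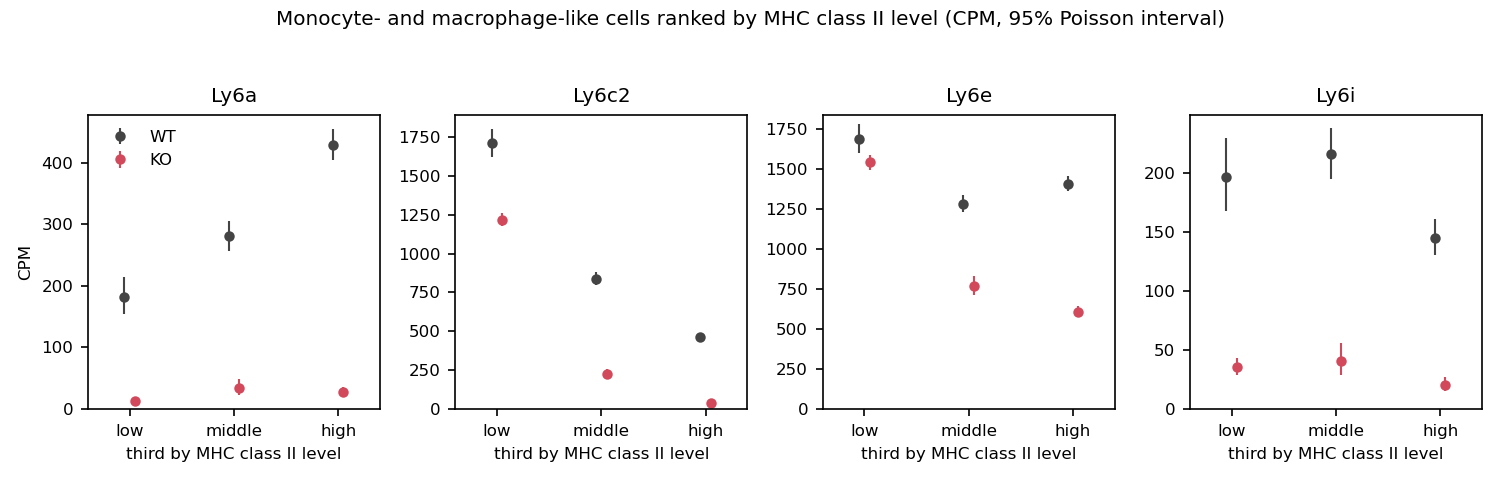
Level of Ly6a, Ly6c2, Ly6e and Ly6i (CPM, linear axis from 0) in monocyte-like and macrophage-like cells split by MHC class II level into low, middle and high groups, WT in grey and KO in red, with exact Poisson 95% intervals. Ly6c2 falls from 1712 to 460.4 CPM in WT and from 1218 to 41.7 CPM in KO, while Ly6a rises from 182 to 429 CPM in WT and stays between 13 and 33.9 CPM in KO.

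Outside these cells, Ly6c2 was lower in KO in the cDC2-like cells, at 126 CPM in WT against 15.5 CPM in KO (-3.02, -3.34 to -2.70), and in the cDC1-like cells (type 1 conventional dendritic cells), at 87.4 and 2.95 CPM (-4.89, -5.77 to -4.11). In the WT cDC1-like cells 5 of 128 cells held 73.2% of the Ly6c2 UMIs, and up to 49 UMIs came from 1 cell. The cDC2-like drop sat in the cluster led by Cd209a and Mgl2 (252 and 19.6 CPM), while the cluster led by Plet1 was at 6.60 and 6.12 CPM (-0.11, -1.46 to 1.35). With each of the other settings Ly6c2 stayed lower in both dendritic classes, between -3.66 and -0.27 and between -5.18 and -2.50. Eosinophil-like cells were at 125 and 8.67 CPM from 36 and 4 UMIs (-3.85, -5.81 to -2.37).

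The direction was the opposite in 3 classes. Ly6c2 was higher in KO in the NK cell-like cells, at 99.6 CPM in 26 WT cells against 468 CPM in 41 KO cells (2.23, 1.43 to 3.13). In the neutrophil-like cells it was 59.3 CPM in WT against 230 CPM in KO (1.96, 1.15 to 2.89), but 5 of the 277 KO cells held 78.3% of those UMIs and 116 came from 1 cell, and with each library clustered alone the ratio was -0.83. In the plasma cell-like cells it was 820 CPM in 236 WT cells against 1495.5 CPM in 5 KO cells (0.87, 0.66 to 1.07). Under other settings the plasma cell-like ratio lay between 0.67 and 2.19. The WT plasma cell-like cells were the second source of Ly6c2 in that library, with 40.8% of its UMIs beside 44.0% in the inflammatory monocyte-like cells. T cell-like cells did not differ beyond counting error, at 90.9 and 74.4 CPM (-0.29, -0.77 to 0.18). B cell-like cells had 20 WT UMIs, all in 4 cells, and 3 KO UMIs, and fibroblast-like cells had 46 WT UMIs, all in 5 cells, and 1 KO UMI. Over the 11 classes with at least 20 UMIs the interval lay below 0 in 6, above 0 in 3 and held 0 in 2. These counts leave out variation between cells, although few cells held most UMIs in the neutrophil-like, cDC1-like and fibroblast-like cells. The KO plasma cell-like value rests on 5 cells. Whether the 11 classes differ from one another was not tested.

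The share of cells with at least 1 Ly6c2 UMI was compared among cells with at least 2000 UMIs, each thinned to that number, because the KO cells were deeper. The thinned shares thus cover the deeper cells, and the loss was unequal, since 39 of 461 WT and 42 of 454 KO inflammatory monocyte-like cells but 161 of 436 WT and 27 of 188 KO resident macrophage-like cells were left out. In the other classes whose shares are given, the WT and KO cells left out were 29 and 29 neutrophil-like, 30 and 5 epithelial-like, 30 and 1 B cell-like, 8 and 2 fibroblast-like and 0 and 1 NK cell-like cells. The Ly6c2 share was 58.5% in WT and 45.6% in KO in the inflammatory monocyte-like cells, and 16.7% and 1.86% in the resident macrophage-like cells. Without thinning the shares were 66.8% and 60.6%, and 19.7% and 3.72%, at median depths of 6130 and 9278.5 UMIs for the monocyte-like and 3556.5 and 7925 UMIs for the resident macrophage-like cells. Epithelial-like cells, which should lack the gene, gave 2.15% in the thinned WT library and 9.76% unthinned at a median of 18679 UMIs, and 0 of 16 KO cells at a median of 3772 UMIs, which allows a share of up to 18.8%. Both WT shares lay above the WT background, and the KO inflammatory monocyte-like share lay above the KO bound. The KO resident macrophage-like share lay within the KO bound, which is too wide to set it apart from the background of its own library. Among the NK cell-like cells, 7.69% of the WT and 27.5% of the KO cells had a Ly6c2 UMI after thinning, and 11.5% and 36.6% without it. Only the 5 KO plasma cell-like cells lay above the monocyte level. In the order of the KO levels among classes with at least 30 cells, the NK cell-like, neutrophil-like and T cell-like cells followed the inflammatory monocyte-like cells without overlap of their intervals, and from the cDC2-like cells at 15.5 CPM downwards each class overlapped the next. In WT the plasma cell-like and the resident macrophage-like cells held these places, and the classes from the cDC2-like down to the B cell-like cells each overlapped the next.

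Ly6c1, the near copy of Ly6c2 known from the endothelium of many tissues, was a gene of the fibroblast-like cells here. It was 317 CPM in 80 WT cells (266 to 375) and 249 CPM in 21 KO cells (187 to 326), and the log2 ratio of -0.35 (-0.83 to 0.12) held 0. Under other settings the ratio in the fibroblast-like cells lay between -1.03 and -0.11. These cells held 78.4% of the WT and 80.3% of the KO UMIs of Ly6c1. Its level over all cells, 9.27 CPM in WT against 2.96 CPM in KO (-1.65, -2.08 to -1.23), differed along with the number of fibroblast-like cells. The part of that number in the ratio was not tested. In the monocyte-like and macrophage-like cells Ly6c1 had 7 WT and 5 KO UMIs, so that Ly6C RNA in that lineage was almost entirely assigned to Ly6c2. Epithelial-like cells had 22 WT UMIs, 11 of them in 1 cell, and 0 KO UMIs in 16 KO cells.

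Ly6a, the gene of Sca-1, showed a lower level in KO in each of the 10 classes with at least 20 UMIs, and in 9 of them the whole interval was below a 2-fold drop. Over all cells it was 315 CPM in WT (307 to 323) against 21.1 CPM in KO (19.2 to 23.1), with a log2 ratio of -3.90 (-4.04 to -3.76) or 14.9-fold. Cell numbers per class differed between the libraries, and their part in this ratio was not tested. In the inflammatory monocyte-like cells Ly6a was 383 CPM in WT against 28.9 CPM in KO (-3.73, -4.01 to -3.45), or 13.3-fold lower. Within the clusters of this class the ratio was smaller in size, at -2.61 (-2.99 to -2.25, 6.11-fold) in the Inhba cluster, -3.52 (-4.68 to -2.39, 11.4-fold) in the Chil3 cluster and -3.24 (-3.77 to -2.75, 9.43-fold) in the remaining small cluster, of which the Inhba cluster held most WT and the Chil3 cluster most KO cells. In the resident macrophage-like cells it was 277 and 6.90 CPM (-5.33, -6.29 to -4.51), the latter from 12 UMIs, with a range between -5.32 and -2.34 under other settings.

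Ly6a was also lower in the dendritic cells and the lymphocytes, and differences in size between classes were not tested. It was 172 CPM in WT against 9.95 CPM in KO in the cDC2-like cells (-4.11, -4.49 to -3.75), and 115 and 9.04 CPM in the cDC1-like cells (-3.67, -4.18 to -3.19). T cell-like cells were at 113 and 18.9 CPM (-2.58, -3.48 to -1.79) and B cell-like cells at 120.5 and 30.5 CPM (-1.98, -2.99 to -1.11). Under other settings the ratio lay between -4.38 and -3.04 in the cDC2-like and between -4.45 and -3.34 in the cDC1-like cells. For the T cell-like cells the range was -3.75 to -2.39, and for the B cell-like cells -2.18 to -1.80. Within the T cells, the Icos and Rora cluster was at 351 CPM in WT against 37.8 CPM in KO, with a log2 ratio of -3.22 (-4.17 to -2.39), and the Gzma and Cd8a cluster at 37.5 and 2.53 CPM (-3.89, -9.23 to -1.33, from 41 and 1 UMIs). Both ratios were larger in size than that of the class, which joins the clusters in different shares in WT and KO. The cluster with Icos and Rora, in which Cd4 was among the raised markers, had the higher Ly6a level in both libraries.

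In the stromal and epithelial cells Ly6a was high in WT and was kept in the KO library by the fibroblast-like cells. The 123 WT epithelial-like cells had 1365 Ly6a UMIs, or 603 CPM, of which 40.6% came from 5 cells, and the 16 KO cells had 0. With a floor of 3 UMIs in place of 0 the KO level was 27.6-fold lower. The exact interval of the log2 ratio reached up to -4.48, which is a smaller drop. Fibroblast-like cells had the highest WT level of all classes at 1004 CPM (912 to 1103) and kept 809 CPM in KO (693 to 940), with a log2 ratio of -0.31 (-0.57 to -0.05). In KO these 21 cells held 36.5% of all Ly6a UMIs of the library, beside 7.31% for 80 cells in WT. Eosinophil-like cells had 32 WT UMIs and 1 KO UMI, and plasma cell-like cells were at 367 and 28.0 CPM, the latter from 4 UMIs in 5 cells. Neutrophil-like cells (5 and 9 UMIs), mature DC-like cells (7 and 8) and NK cell-like cells (3 and 0) were under the limit of 20 UMIs in all. In the order of the WT levels, fibroblast-like and epithelial-like cells stood above all others, the inflammatory monocyte-like cells overlapped the plasma cell-like cells, and the B cell-like, cDC1-like, T cell-like and eosinophil-like cells overlapped each other. Among the KO classes with at least 30 cells, no class stood apart from the next, from 30.5 CPM in B cell-like to 2.17 CPM in eosinophil-like cells. Classes further apart in this order did differ. The inflammatory monocyte-like cells, at 28.9 CPM (23.9 to 34.6), lay clear of the cDC2-like cells at 9.95 CPM (7.81 to 12.5). Across all 16 clusters with at least 20 UMIs the interval was below 0 in 16 and wholly beyond a 2-fold drop in 15, the fibroblast-like cluster being the exception.

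The share of cells with a Ly6a UMI moved with the level. After thinning it was 29.4% in WT and 2.91% in KO in the inflammatory monocyte-like cells and 29.8% and 4.35% in the resident macrophage-like cells. Unthinned it was 45.1% and 8.59%, and 34.9% and 5.32%. Neutrophil-like cells, taken as the class that should lack Ly6a, gave 3.70% in WT and 1.61% in KO after thinning, and 4.82% and 2.89% unthinned at median depths of 2287 and 3026 UMIs. Both WT shares lay far above this background, and after thinning both KO shares lay close to it. Without thinning the KO inflammatory monocyte-like share was 8.59% against 2.89% in the KO neutrophil-like cells. The KO levels of these 2 classes, 28.9 CPM (23.9 to 34.6) and 9.17 CPM (4.19 to 17.4), did not overlap. Among the KO fibroblast-like cells 63.2% still had a Ly6a UMI after thinning, beside 68.1% in WT, and the shares without thinning were 71.4% and 82.5%.

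**Figure D3:**
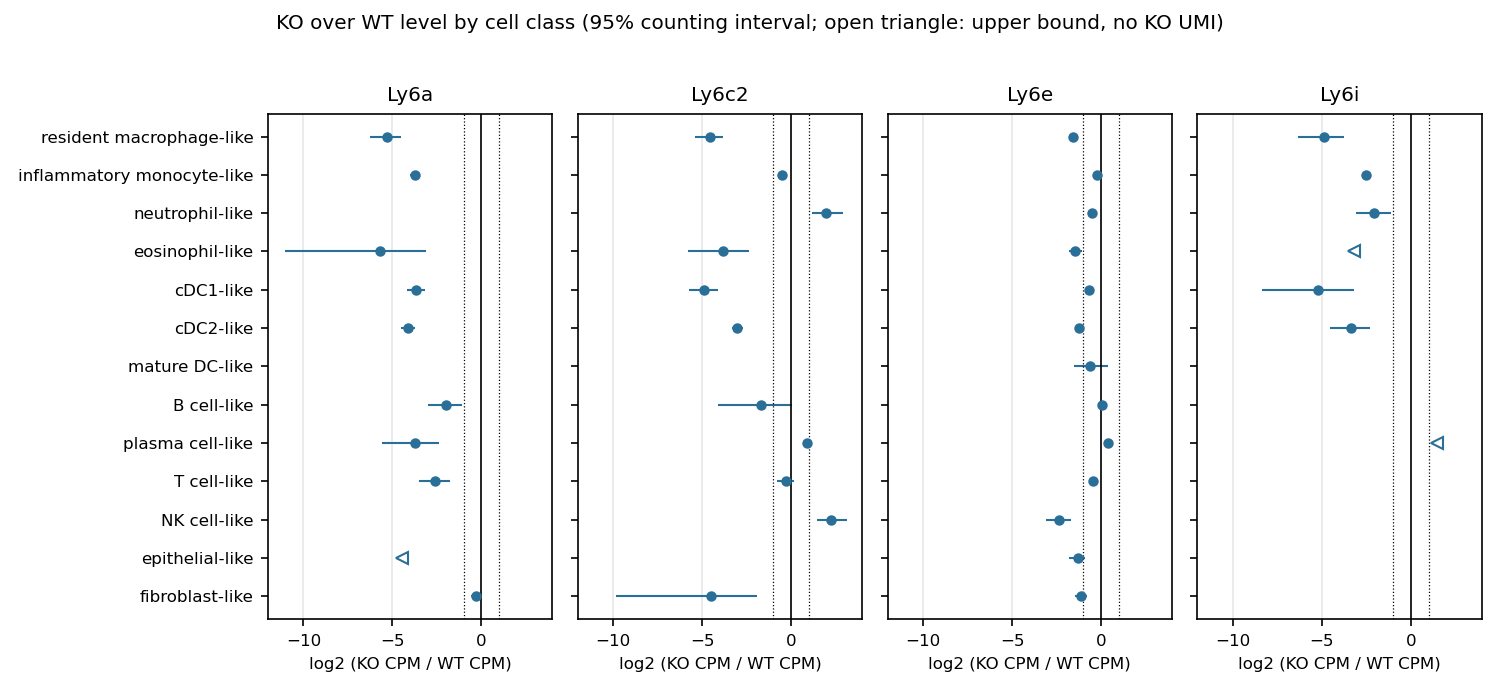
KO over WT level of Ly6a, Ly6c2, Ly6e and Ly6i in each named class with at least 20 UMIs (log2 scale), with exact binomial 95% intervals for counting error, dotted lines at a 2-fold difference, and open triangles at the upper bound where KO had no UMI. All Ly6a points and all Ly6i points with a KO UMI lie left of 0, from -0.31 for Ly6a in fibroblast-like cells downwards, the open triangle of Ly6i in plasma cell-like cells is a bound at 1.47, and Ly6c2 spans -4.89 to 2.23.

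Ly6i, a monocyte and macrophage antigen close to Ly6a in sequence, was confined largely to the inflammatory monocyte-like cells, which held 63.8% of its WT UMIs and 81.0% of its KO UMIs. It was 235 CPM in WT (218 to 253) against 41.7 CPM in KO (35.6 to 48.4) in these cells (-2.50, -2.75 to -2.25). In the resident macrophage-like cells it was 104 and 3.45 CPM (-4.91, -6.37 to -3.77). Within the Inhba, Chil3 and remaining small clusters of the monocyte class the ratio was -2.19, -1.59 and -3.03. Over the other settings the class ratios lay between -2.75 and -0.36 and between -5.07 and -1.80. Neutrophil-like cells were at 86.6 and 20.4 CPM from 19 and 20 UMIs (-2.09, -3.07 to -1.10). In these 3 classes the WT and KO levels did not overlap. Eosinophil-like cells had 23 WT UMIs (80.1 CPM) and 0 KO UMIs. With a floor of 3 UMIs in place of 0 the KO level was 12.3-fold lower. The exact interval of the log2 ratio reached up to -3.21, which is a smaller drop. The dendritic cells held little Ly6i, at 13.6 and 1.34 CPM in the cDC2-like and 14.9 and 0.393 CPM in the cDC1-like cells. After thinning, 26.5% of WT and 7.77% of KO inflammatory monocyte-like cells had a Ly6i UMI, and 7.64% of WT and 0 of 161 KO resident macrophage-like cells, which allows a share of up to 1.86%, beside 44.3% and 18.5%, and 14.9% and 1.60%, without thinning. Epithelial-like cells, which should lack Ly6i, gave 1.63% in WT and 0 of 16 cells in KO unthinned, and 0 of 93 WT cells after thinning, which allows up to 3.23%.

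Along MHC class II, Ly6i did not follow Ly6c2. Its log2 ratio was -2.48 in the lowest, -2.41 in the middle and -2.82 in the highest tertile, with overlapping intervals. Ly6a rose with MHC class II in WT, from 182 to 281 and 429 CPM, and the KO over WT ratio was -3.80, -3.05 and -3.92 in the same order. The intervals of the end tertiles overlapped for Ly6a and for Ly6i and lay apart for Ly6c2.

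Co-detection within single cells is given as a description, over cells thinned to 2000 UMIs, of which the WT library had 422 in the inflammatory monocyte-like class. Ly6i was detected in 40.3% of the cells with a Ly6a UMI (31.6 to 49.5) and in 20.8% of those without (16.3 to 25.9). Ly6c2 was detected in 67.7% and 54.7% of the same groups, with overlapping intervals. In the WT resident macrophage-like cells Ly6c2 was detected in 30.5% of the cells with Ly6a (20.8 to 41.6) and 10.9% of those without (6.86 to 16.2). Ly6i differed little between the same groups of resident macrophage-like cells, at 8.54% and 7.25%. Ly6e was detected in 92.7% of the resident macrophage-like cells with Ly6a (84.8 to 97.3) and in 71.0% of those without (64.0 to 77.3), intervals that do not overlap.

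Ly6e, the broadly expressed member, was found in every named class of both libraries, and 13 classes reached 20 UMIs. Over all cells it was 1059.6 CPM in WT against 670.4 CPM in KO (-0.66, -0.69 to -0.63), within 2-fold. Among the classes with at least 30 cells it was highest in the inflammatory monocyte-like cells of both libraries, at 1557 and 1322 CPM (-0.24, -0.29 to -0.18). In the resident macrophage-like cells it was 1208 and 409 CPM (-1.56, -1.68 to -1.44). The KO level was thus 2.95-fold lower in the resident macrophage-like and 1.18-fold lower in the inflammatory monocyte-like cells, within which the Inhba cluster was at -0.84 (-0.95 to -0.74), the Chil3 cluster at -0.16 (-0.30 to -0.02) and the remaining small cluster at -0.35 (-0.52 to -0.18). Within the resident class, the main cluster was at -1.23 (-1.36 to -1.10) and the cluster led by Retnla and Fn1 at -1.32 (-1.98 to -0.60). Both were smaller in size than the ratio of the class, which joins the clusters in different shares in WT and KO.

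Of the 13 classes, the interval of Ly6e was below 0 in 10, above 0 in 1 and held 0 in 2. The cDC2-like cells were at 1034 and 444 CPM (-1.22, -1.29 to -1.14), the cDC1-like cells at 1167 and 726 CPM (-0.68, -0.77 to -0.60) and the NK cell-like cells at 671 and 131 CPM (-2.36, -3.07 to -1.71). Within the cDC2-like cells, the Cd209a and Mgl2 cluster was at -1.52 (-1.63 to -1.42). The Plet1 cluster was at -0.70 (-0.80 to -0.59), within 2-fold. The B cell-like cells were at 963 and 987 CPM (0.04, -0.14 to 0.21), so that a difference was not detectable in them at this depth. Eosinophil-like cells (564 and 208 CPM), epithelial-like cells (747 and 299 CPM) and fibroblast-like cells (986 and 456 CPM) were lower past 2-fold, though under other settings the ratio lay between -1.52 and -0.53 in the eosinophil-like and between -2.19 and -0.68 in the epithelial-like cells. T cell-like cells (743 and 537 CPM) and neutrophil-like cells (784 and 556 CPM) were lower within 2-fold. The neutrophil-like ratio lay between -1.45 and -0.34 under other settings, the lower end being past 2-fold. Within the T cells, the Gzma and Cd8a cluster was lower past 2-fold, at 597 and 228 CPM (-1.39, -1.72 to -1.07). The Icos and Rora cluster was lower within it, at 1206 and 893 CPM (-0.43, -0.65 to -0.22). The plasma cell-like cells were the only class with the interval above 0, at 1018 CPM in 236 WT cells against 1321 CPM in 5 KO cells (0.38, 0.16 to 0.59). Mature DC-like cells, with 14 and 37 UMIs, were at 87.5 and 57.9 CPM (-0.59, -1.52 to 0.41). The order of the classes changed accordingly, the resident macrophage-like cells going from the second highest in WT to the seventh of the 10 KO classes with at least 30 cells. Along MHC class II, the ratio of Ly6e went from -0.13 (-0.22 to -0.04) in the lowest to -0.74 and -1.21 (-1.30 to -1.12) in the highest tertile, in the same direction as Ly6c2 and with a smaller range.

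**Figure D4:**
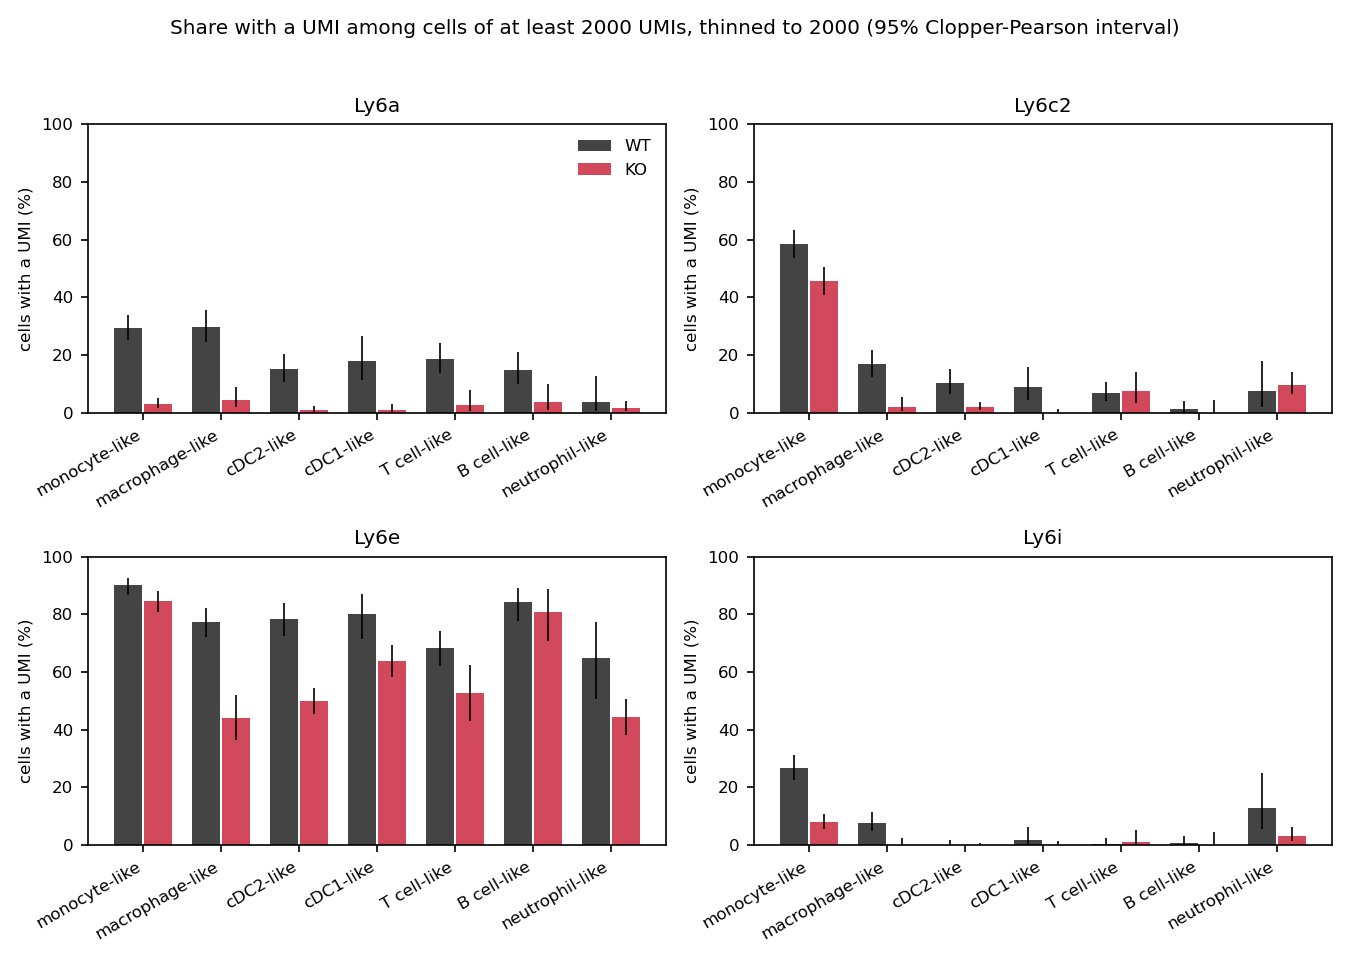
Share of cells with at least 1 UMI of Ly6a, Ly6c2, Ly6e or Ly6i in 7 classes, among cells with at least 2000 UMIs thinned to that number, WT in grey and KO in red, with exact Clopper-Pearson 95% intervals. In the monocyte-like cells the Ly6a share goes from 29.4% in WT to 2.91% in KO, and in the resident macrophage-like cells the Ly6e share goes from 77.5% of 275 cells to 44.1% of 161 cells, beside 75.7% and 72.3% over all cells of the class without thinning.

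Ly6d, the B lineage member, was detected in B cell-like and plasma cell-like cells. In the B cell-like cells it was 294 CPM in WT (257 to 334) against 338 CPM in KO (283 to 400), and the log2 ratio of 0.20 (-0.12 to 0.51) held 0. Under other settings this ratio lay between 0.08 and 1.03. After thinning, 32.9% of WT and 39.3% of KO B cell-like cells had a Ly6d UMI, and 46.0% and 56.5% had one without thinning at median depths of 2999.5 and 4394 UMIs. Neutrophil-like cells, which should lack it, had 1 WT UMI, in 1.85% of the thinned cells, and 0 KO UMIs. The plasma cell-like cells were at 405 CPM in 236 WT cells against 1621 CPM in 5 KO cells (2.00, 1.80 to 2.20), of which 1 cell held 106 of the 232 UMIs. Ly6d over all cells was 102 and 16.7 CPM (-2.60, -2.77 to -2.44), the opposite sign of the ratio in both classes that hold it, beside the fall from 236 to 5 plasma cell-like cells.

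Ly6g, the neutrophil antigen, was rare in these libraries, with 19 WT and 23 KO UMIs. All 23 KO UMIs were in neutrophil-like cells, whereas of the WT UMIs 15 were in epithelial-like, 2 in neutrophil-like and 2 in plasma cell-like cells. The neutrophil-like level was 9.12 CPM from 2 UMIs in WT and 23.4 CPM in KO (1.36, -0.66 to 4.49), so no difference was detectable at this depth. Neutrophil-like cells were named from S100a8, S100a9, Csf3r and 6 other markers, and only 5.78% of the KO cells had a Ly6g UMI. The epithelial-like share of WT cells with a Ly6g UMI was 4.07%, at a median depth of 18679 UMIs beside 3026 UMIs in the KO neutrophil-like cells. In the neutrophil-like class 1 of 4 measured members was lower and 2 were higher past 2-fold, Ly6g with an interval that holds 0, beside 12.3% and 6.99% of all genes.

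In the remaining classes the counts of members past 2-fold are set beside the shares of all genes, lower and then higher. All 4 measured members were lower in the cDC2-like cells (6.38% and 3.49%) and in the eosinophil-like cells (9.18% and 8.10%), and 3 of 4 in the cDC1-like cells (2.66% and 3.03%), with 0 higher. Of the lymphocytes, Ly6a and Ly6c2, 2 of 4, were lower and 0 higher in the B cell-like cells (10.6% and 1.83%), though the interval of Ly6c2 held 0 and its ratio turned to 2.45 and 4.40 under other settings, 1 of 3 was lower and 0 higher in the T cell-like cells (13.4% and 4.53%), and 1 of 2 was lower and 1 higher in the NK cell-like cells (5.99% and 6.71%). In the fibroblast-like cells Ly6c2 and Ly6e, 2 of 4, were lower and 0 were higher (12.0% and 8.80%), and Ly6c2, with its WT UMIs in 5 cells, lay between -4.75 and -0.16 under other settings. The classes with few KO cells had high backgrounds, with 3 of 3 lower and 0 higher in the epithelial-like cells (23.6% and 8.63%) and 2 of 5 lower and 1 higher in the plasma cell-like cells (29.9% and 7.13%). Of these, Ly6c1 in the epithelial-like cells (22 and 0 UMIs) and Ly6i in the plasma cell-like cells (40 and 0 UMIs) had intervals up to 1.59 and 1.47, so that a lower KO level was not detectable at this depth. In the mature DC-like cells 1 member was measured and 0 were past 2-fold (15.8% and 8.72%). In the T cell-like, NK cell-like, epithelial-like and mature DC-like cells these counts rest on at most 3 measured members, and in the plasma cell-like cells on 5 KO cells. The counts of these classes are not read as a result about the family.

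The values inside the macrophage lineage moved with the settings of the processing. Over 13 other settings of filter, clustering, naming and scaling, the log2 ratio of Ly6a in the resident macrophage-like cells lay between -5.32 and -2.34 (-5.33 above), that of Ly6c2 between -5.20 and -0.49, that of Ly6e between -1.63 and -1.16 and that of Ly6i between -5.07 and -1.80, all below 0. In the inflammatory monocyte-like cells the ranges were -4.89 to -3.24 for Ly6a, -0.55 to -0.17 for Ly6c2 and -2.75 to -0.36 for Ly6i, and Ly6e went from -0.33 to 0.0022, the last with the Ly6 genes allowed into the clustering. For both classes joined, Ly6c2 was -0.41 and went from -0.52 to 0.39, the last with 4000 variable genes, so that its direction in the lineage as a whole turned under that setting, and the cause was not tested. The ratio of Ly6c2 in resident macrophage-like cells was thus not beyond 2-fold under each setting, whereas that of Ly6a was beyond 2-fold under each setting in both classes. The 2 clusters of the resident class also differed, with 429 WT and 140 KO cells in the main cluster (Ly6c2 224 and 4.21 CPM) and 7 WT and 48 KO cells in the cluster led by Retnla and Fn1, in which Ly6c2 had 0 WT and 11 KO UMIs.

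**Figure D5:**
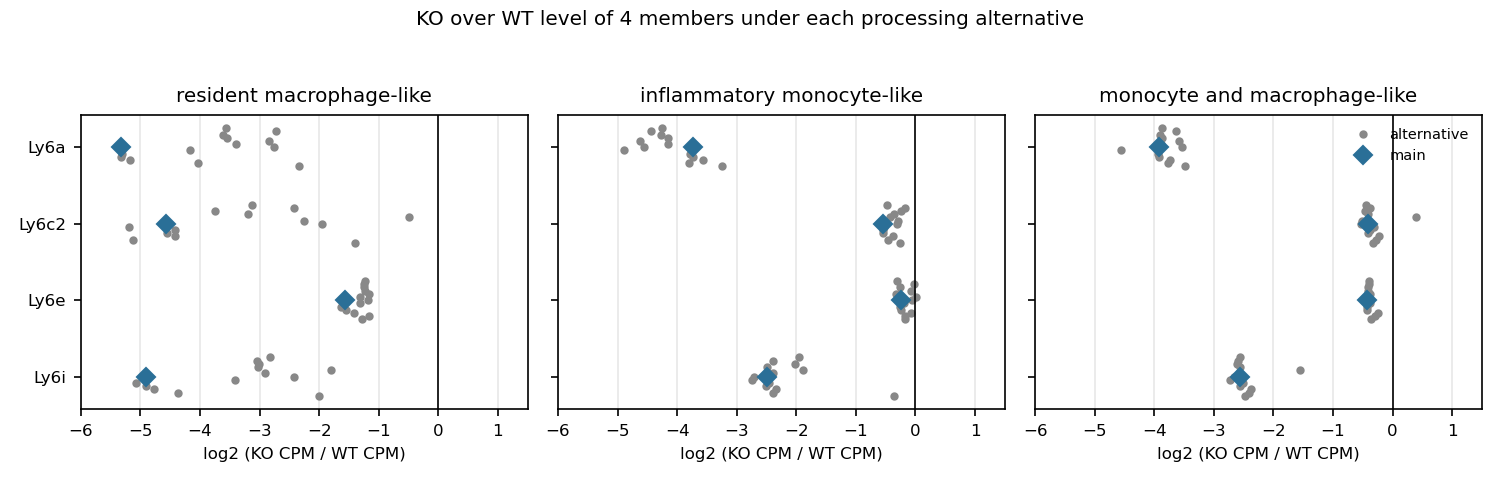
KO over WT log2 ratio of Ly6a, Ly6c2, Ly6e and Ly6i in resident macrophage-like cells, inflammatory monocyte-like cells and both together, under the settings used in the text (blue diamonds) and 13 alternatives (grey points). No Ly6a point lies above -2.34 in the 3 panels, and the Ly6c2 points of the resident macrophage-like cells spread from -5.20 to -0.49.

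The wider family and the genes around it were taken from lists. Of 28 other genes of the Ly6/uPAR superfamily, 26 were among the features, 8 reached 20 UMIs over all cells and 3 were lower past 2-fold, beside 13.4% of all genes, and 0 were higher, beside 2.69%, with a median of -0.57 beside -0.24 for all genes tested. Lypd8, a secreted epithelial member that binds flagellated bacteria, went from 519 to 6.63 CPM (-6.29, -6.54 to -6.06), and Ly6k and Ly6g6e had 42 and 33 WT UMIs and 2 KO UMIs each. Lypd8 is also among the leading genes of the epithelial-like cluster, which had 123 WT and 16 KO cells. Of the 9 genes that attach the GPI anchor, on which Ly6 proteins depend, 0 were past 2-fold in the monocyte-like and macrophage-like cells, with a median of -0.74 beside -0.18, and 2 of 9 (Pigt, -1.12, and Pgap3, -1.51) were lower over all cells, where 13.4% of all genes were, which is not read as a result about these genes.

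Interferon-stimulated genes were listed because Ly6a and Ly6e are members of that response. In the monocyte-like and macrophage-like cells 3 of 16 were lower past 2-fold, among them Gbp2 (-1.43) and Ifi47 (-1.26), GTPase genes of the interferon-gamma response, and 1 was higher, Oasl1 (1.36), beside 4.84% and 2.57% of all genes. In the resident macrophage-like cells 5 were lower, among them Irf7 (-2.99) and Gbp2 (-2.29), and 6 were higher, among them Ifit1 (2.77) and Oasl1 (2.35), beside 6.76% and 4.32%. In the inflammatory monocyte-like cells 4 of 16 were lower and 0 higher (5.66% and 2.06% of all genes), in the cDC2-like cells 8 of 16 lower and 3 higher (6.38% and 3.49%), and in the cDC1-like cells 8 of 15 lower and 1 higher (2.66% and 3.03%). In the lymphocytes 5 of 6 were lower and 0 higher in the B cell-like cells (10.6% and 1.83%), and 6 of 12 lower and 1 higher in the T cell-like cells (13.4% and 4.53%). In the epithelial-like cells, where Ly6a had no KO UMI, 14 of 16 were lower and 2 higher with a median of -3.09 (23.6% and 8.63%). In the fibroblast-like cells 14 of 14 measured genes were lower with a median of -2.48 (12.0% of all genes), the class in which Ly6a was within 2-fold of WT. In the mature DC-like cells 2 of 13 were lower and 6 higher with a median of 0.83 (15.8% and 8.72%), and in the plasma cell-like cells 7 of 11 lower and 3 higher (29.9% and 7.13%). In the neutrophil-like cells 5 of 15, in the eosinophil-like cells 3 of 6 and in the NK cell-like cells 1 of 4 were lower, with 0 higher, beside 12.3%, 9.18% and 5.99%. The interferon genes themselves did not all go the way of most of the listed genes. Ifnb1, which encodes interferon-beta, had 4 WT and 776 KO UMIs over all cells, and in the resident macrophage-like cells it had 0 WT UMIs against 340 KO UMIs, or 196 CPM. Ifng, which encodes interferon-gamma, was lower in KO in the T cell-like cells, at 181 against 37.9 CPM, and higher in KO in the NK cell-like cells, at 438 against 1219 CPM. The part of the interferons and of the interferon response in the Ly6 values was not tested.

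The features whose levels ran most like each member were named from Pearson correlations of log2(CPM + 10) over 21 points, each a class of at least 30 cells in 1 library, among 9484 candidate genes. These are descriptions, since the points share libraries and depth. Ly6d ran with Vpreb3 (0.98), Pou2af1 (0.98) and Gm30211 (0.97), the first and second of which are B lineage genes. Ly6c1 ran with Ppic, Meg3 and Hspg2 (0.99 each), the last a matrix proteoglycan. The fibroblast-like cells entered as 1 point, that of WT, at 317 CPM of Ly6c1, and its next highest WT point was at 9.72 CPM. All correlations of Ly6c1, also those with other members, thus rest largely on that 1 point. Ly6i ran with Gm36161 (0.88), Sirpb1c (0.87), which is a myeloid receptor of the SIRP family, and Fam26f (0.86), and Ly6e with Plac8 (0.80), a marker used to name the monocytes, AI413582 (0.77) and Tmed10 (0.76). Ly6a ran with Gmppa (0.89), Zfp358 (0.86) and BC003331 (0.86), and Ly6c2 less closely with B2m (0.72), Gm5547 (0.71) and Ddx58 (0.69). Among the members themselves the highest values were 0.63 for Ly6a with Ly6e and 0.62 for Ly6c2 with Ly6i, while Ly6c1 and Ly6c2, the near copies, were at 0.04.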

How the data were processed

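Colonic lamina propria cells of WT and KO mice were measured as 2 libraries, 1 per genotype. The deposited files hold raw UMI counts per gene and barcode. They were made by the authors with Cell Ranger 3.0.2, per the file headers, and the submitters' processing notes name the mm10 build and Seurat 4. Barcodes with 200 to 6000 genes and at most 15% mitochondrial UMIs were kept, following the study, and no doublets were removed beyond that limit. Counts were scaled to 10000 per cell, logged, reduced to 2000 variable genes and 30 components, and clustered with scanpy 1.11.5 and leidenalg 0.10.2 (15 neighbours, shared-neighbour edges under 1/15 pruned, resolution 1) under Python 3.11.15, with numpy 2.4.6, pandas 2.3.3, scipy 1.17.1, scikit-learn 1.9.0 and, for alignments, biopython 1.88. A cluster was named if at least 3 markers of a type were raised 2-fold (prior 10 CPM) and detected in 10% of its cells, if its 10 leading genes did not go against the name, and if its depth was not under the depth of its sample by a factor of 3 with none of the type's markers among those leading genes. Named genes were all members and, by rule, the 3 genes most like each of them and, as examples, up to 4 list genes past 2-fold per list and class. Genes that check the labels (Itgam, Epx) and the interferon genes Ifnb1 and Ifng lie outside the rule and were chosen after values had been seen. The members, lists and class markers were chosen with earlier results of these data known, and the scaling and the pruning were settled after first clusterings and first member values had been seen. Scripts were tested on simulated data. Loci, coding sequences and shared windows came from GENCODE M21 (GRCm38). With 1 library per genotype no test was made: ratios carry exact intervals for counting error only, and UMIs lie between 18994564 and 22331342 per library after the filter. Alternatives were tried for the filter, clustering, naming, doublets and scaling.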

Additional observations from a re-analysis of the deposited data

Results flagged for a closer look

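The cell filter removed 588 WT and 506 KO barcodes, which enter no comparison above, and the Ly6 genes were detected in them. Ly6a was at 449.8 CPM in the removed WT barcodes and at 15.2 CPM in the removed KO barcodes, a difference of -4.89 in log2 units (-5.70 to -4.18, from 1438 and 16 UMIs). Ly6e was at 474 and 305 CPM in the same barcodes (-0.64, -0.81 to -0.46). Ly6c2 was low in both, at 23.5 and 19.9 CPM, and its ratio of -0.23 (-1.01 to 0.48) held 0.

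Ly6c2 went in opposite directions in different classes. It was higher in the KO neutrophil-like cells by 1.96 and in the KO NK cell-like cells by 2.23 in log2 units, whereas its interval lay wholly below 0 in 6 other classes. The difference between the classes was not tested, since each genotype has 1 library. The neutrophil-like value rests on 13 WT UMIs and on 5 KO cells with 78.3% of the KO UMIs, and the NK cell-like value on 15 WT UMIs in 26 cells.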

How the results depend on the processing

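Over 13 other settings, Ly6a, Ly6c2, Ly6e and Ly6i in all cells and in the monocyte-like and macrophage-like cells gave 104 values, of which 76 moved by less than the counting interval, 28 moved by more and 0 turned the direction of a value past 2-fold. Over all cells, Ly6c2 was -1.06 and Ly6e -0.58 with every deposited barcode, -1.27 and -0.70 with the stricter filter, Ly6c2 was -1.28 without the top 3% of doublet scores, Ly6a, Ly6c2 and Ly6e were -4.05, -1.36 and -0.81 with mitochondrial, immunoglobulin and haemoglobin genes left out of the totals, and Ly6a, Ly6c2, Ly6e and Ly6i were -3.66, -0.97, -0.42 and -2.37 relative to the median gene. In the monocyte-like and macrophage-like cells, Ly6a was -3.64 with the stricter filter, -3.58 with 4000 variable genes, -3.54 with each library clustered alone, -4.56 with classes from marker scores and -3.49 without scaling. Ly6c2 there was -0.52 with the Ly6 genes allowed into the clustering (-0.515), -0.52 with each library alone, -0.31 with marker scores, -0.24 relative to the median gene, -0.29 without pruning and -0.33 without scaling, and with 4000 variable genes it changed sign to 0.39. Ly6e there was -0.25 relative to the median gene, -0.30 without pruning and -0.37 without scaling, and Ly6i -1.56 with 4000 variable genes. The count of members past 2-fold lower there rose to 4 without scaling and that of members higher to 1 with each library alone. The settings without pruning and without scaling were chosen after seeing the data. Of 576 values for members in single classes, 432 stayed within the interval, 140 moved and 4 turned the direction of a value past 2-fold, all of Ly6c2: -0.83 in neutrophil-like cells with each library alone, and in B cell-like cells 4.40 with each library alone, 2.45 without the top doublet scores and 2.45 without scaling. Within 2-fold, Ly6c2 in T cell-like cells, Ly6e in B cell-like, mature DC-like and inflammatory monocyte-like cells and Ly6g over all cells also changed sign under at least 1 setting. The cause of these shifts was not tested. No paired analysis was possible because each genotype has 1 library. Depth limits Ly6g, with 42 UMIs in all, and Ly6c1 outside the fibroblast-like cells.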

Other observations

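MHC class II itself, used to order the monocyte-like and macrophage-like cells, was not past 2-fold in any of its 4 genes over both classes, with a median of -0.36 beside -0.18 for all genes tested. The Ly6c2 level at a like median of MHC class II can be read in the middle tertile, whose medians were 19584 CPM in WT and 19485 CPM in KO, and there Ly6c2 was 837 and 224 CPM. Ccr2, the chemokine receptor of monocytes, was 833 and 583 CPM in the same tertile and 1025 and 549 CPM in the lowest, where the medians of MHC class II differed.

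The unnamed cluster (118 WT and 74 KO cells), led by Gm26917, Ccnb1ip1 and Gm42418, had the same direction for Ly6a, with 43 WT UMIs and 1 KO UMI, and for Ly6c2, with 67 and 4 UMIs.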
